A study of Homo sapiens with 3 samples.

Results

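Peaks of the tagged transcription factor MECOM were examined where the deposited list places them at an Ensembl gene that has an identifier but no gene symbol. A peak was included when it overlapped such a gene (its start, its end, its inside or the whole gene) or lay within 1000 bp of it. This gave 374 of the 3462 peaks in the list (10.8%, exact 95% binomial interval 9.79 to 11.9), at 353 distinct genes. Placement and annotation chose the peaks, and enrichment played no part in the choice. Of the 374, 2 also had a second line in the list at a gene with a symbol, SBNO1 or RASGEF1B. The immediate comparison is with 2127 peaks placed by the same rule at genes that do have a symbol.

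The chromatin came from HEK293T cells, an embryonic kidney line that is widely used because it takes up DNA easily and that does not normally belong to the blood lineage. The study has 3 groups of 1 library each: cells given the pMYS-IG vector alone (Vector), wild-type MECOM with an AM tag (WT), or the R750W form with that tag. An antibody to the AM tag was used for the precipitation in every group, so endogenous untagged MECOM was not measured. The labels speak of transfected cells and the design text of transduced cells, and neither gives the level of MECOM reached. The list is that of the WT group by its name alone. The Vector and R750W lists were not analysed here, so the background of the tag antibody in cells without tagged MECOM is not known for any peak below. With 1 library there was no replicate and no test between groups.

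MECOM carries separate sets of zinc fingers, of which the first is known to recognise GATA-like sequence and the second an ETS-like sequence. It recruits corepressors and histone-modifying enzymes, and its overexpression is a mark of aggressive myeloid leukaemia. Genes without a symbol are mostly long non-coding RNAs (lncRNAs), pseudogenes and copies of small RNA genes. Many such lncRNAs start close to a protein-coding gene and are read away from it on the other strand, an arrangement known as a divergent or bidirectional promoter. An annotation that names the nearest gene can therefore credit a peak at a well-known promoter to its unnamed partner.

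The sequences below are RefSeq promoter windows (250 bases before to 50 after a gene start, GRCh38.p14) at member peaks. A window was taken where at least 150 of its bases lay under the peak. The peak covered 184 bases of the GLDC window and 180 of the GATA2 window, and all 300 of the others printed. The first 6 belong to some of the highest peaks of this kind. The last is the GATA2 start, shown because the study concerns competition of MECOM with GATA2. Capitals mark 3 short motifs on either strand, or the letters GAAGATGAG, which were found in none of them. The first motif is the core of sites for blood-cell GATA factors, with the letters AGATAA. The second is the core that proteins of the ETS family are known to contact, with the letters TTCCGG. The third is the box bound by factors of the Sp family in many promoters without a TATA element, with the letters GGGCGG, called a GC box here.
GLDC promoter, chr9:6645680-6645979, minus strand: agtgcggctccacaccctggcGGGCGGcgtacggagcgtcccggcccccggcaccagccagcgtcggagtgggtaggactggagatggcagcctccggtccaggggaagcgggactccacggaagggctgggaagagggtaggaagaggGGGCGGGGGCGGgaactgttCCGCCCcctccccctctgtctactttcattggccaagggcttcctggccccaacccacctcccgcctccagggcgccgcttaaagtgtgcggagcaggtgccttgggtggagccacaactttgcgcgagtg
RAG1 promoter, chr11:36510103-36510402, plus strand: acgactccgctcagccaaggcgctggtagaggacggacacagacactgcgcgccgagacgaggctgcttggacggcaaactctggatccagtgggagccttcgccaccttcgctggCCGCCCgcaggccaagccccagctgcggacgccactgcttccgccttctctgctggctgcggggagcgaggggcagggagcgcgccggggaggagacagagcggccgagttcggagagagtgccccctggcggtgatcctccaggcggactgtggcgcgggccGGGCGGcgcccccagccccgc
CCDC39-AS1 promoter, chr3:180679831-180680130, plus strand: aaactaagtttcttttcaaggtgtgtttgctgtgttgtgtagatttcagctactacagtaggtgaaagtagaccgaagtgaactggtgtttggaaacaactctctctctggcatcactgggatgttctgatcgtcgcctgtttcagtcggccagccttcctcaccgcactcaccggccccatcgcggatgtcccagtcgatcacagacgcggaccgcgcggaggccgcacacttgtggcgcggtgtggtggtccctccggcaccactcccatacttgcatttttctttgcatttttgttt
ZDHHC23 promoter, chr3:113947763-113948062, plus strand: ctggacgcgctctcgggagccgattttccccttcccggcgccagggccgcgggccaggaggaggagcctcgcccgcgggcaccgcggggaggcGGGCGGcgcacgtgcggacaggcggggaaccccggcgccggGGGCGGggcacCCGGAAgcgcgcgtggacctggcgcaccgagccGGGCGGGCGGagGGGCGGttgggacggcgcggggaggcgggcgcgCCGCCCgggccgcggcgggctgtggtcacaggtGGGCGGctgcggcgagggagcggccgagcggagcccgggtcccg
AJUBA promoter, chr14:22982502-22982801, minus strand: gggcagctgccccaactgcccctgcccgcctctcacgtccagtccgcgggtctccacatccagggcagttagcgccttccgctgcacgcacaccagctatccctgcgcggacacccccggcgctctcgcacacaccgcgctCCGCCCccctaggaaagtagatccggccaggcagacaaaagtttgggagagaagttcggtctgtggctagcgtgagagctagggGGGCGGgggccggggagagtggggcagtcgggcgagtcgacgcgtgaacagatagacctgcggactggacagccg
NEK2 promoter, chr1:211675572-211675871, minus strand: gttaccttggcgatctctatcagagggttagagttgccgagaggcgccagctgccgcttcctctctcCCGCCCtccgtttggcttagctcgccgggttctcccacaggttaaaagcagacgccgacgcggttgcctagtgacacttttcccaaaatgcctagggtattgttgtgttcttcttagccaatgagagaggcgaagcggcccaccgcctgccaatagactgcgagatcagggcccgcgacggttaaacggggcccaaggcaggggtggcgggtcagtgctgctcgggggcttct
GATA2 promoter, chr3:128488481-128488780, minus strand: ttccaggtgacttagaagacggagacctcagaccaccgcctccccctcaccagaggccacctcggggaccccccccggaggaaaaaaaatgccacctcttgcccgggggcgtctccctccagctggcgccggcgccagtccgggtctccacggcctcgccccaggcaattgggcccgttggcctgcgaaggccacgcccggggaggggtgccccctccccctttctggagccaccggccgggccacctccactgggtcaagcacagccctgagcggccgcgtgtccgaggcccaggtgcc
In these windows GC boxes were the most frequent of the marked letters, with 7 in that of ZDHHC23 and 4 in that of GLDC. The ETS-type core occurred once in that of ZDHHC23, and the GATA-type core in none of the windows printed. Those of CCDC39-AS1 and GATA2 held no marked letters. A match is a description of the letters and not a binding site.

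The highest peak of the set lay inside ENSG00000261553 on chromosome 13 from 75571682 to 75572185, within the span of UCHL3, a gene for a ubiquitin hydrolase. Its enrichment over local background was 15.4-fold (95% interval 12 to 19.4), and 69 fragments stood over 3.56 expected from background. All intervals on fold were exact (Poisson), rest on the fragments at the highest point of the peak with background held fixed, and cover counting error only. The next was at the start of ENSG00000227712 on chromosome 1 from 119327236 to 119327985, at 10.1-fold (7.03 to 14). A second peak inside that gene, from 119296745 to 119297277, reached 8.90-fold (5.78 to 13.2). Neither overlapped a RefSeq gene, and the nearest protein-coding start was that of HAO2, 40800 bp from the higher peak. The start of ENSG00000266313 on chromosome 17 (27332732 to 27333357) followed at 9.72-fold (6.47 to 14.1), within the lncRNA gene LINC03146. At ENSG00000276302 on chromosome 6 (28267052 to 28267379) the peak reached 9.64-fold (6.37 to 14.1) and lay within ZSCAN26, a zinc finger gene. The peak at ENSG00000272342 on chromosome 2 (739796 to 741018), within LOC105373480, had 8.64-fold (5.61 to 12.8). The interval of the peak in UCHL3 overlapped those of the other peaks named here. Among the 15 highest it lay above those at ENSG00000249637 (6.12 to 11.7) and ENSG00000277700 (5.75 to 11.2). The order of the leading peaks was not tested.

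**Figure D1:**
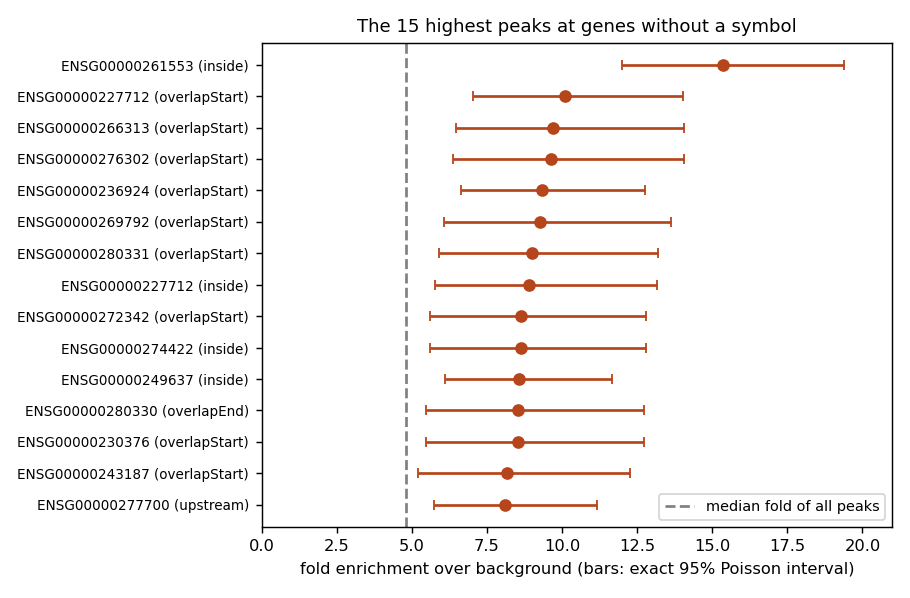
The 15 highest peaks at genes without a symbol, with fold enrichment on the horizontal axis, exact 95% Poisson intervals as bars and the position class in brackets. The highest stands at 15.4-fold and the other 14 between 8.12 and 10.1, and all 15 intervals lie above the median of all peaks (dashed, 4.82). The 15 were chosen as the highest by fold, so their place above that median is largely set by the choice.

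As a whole the set had the height of the list. The median enrichment was 4.75-fold (quartiles 4.00 and 5.63) at genes without a symbol, 4.75 (4.02 and 5.63) at genes with a symbol and 4.82 over all peaks. Fragments at a peak had a median of 18 in each of the 3 sets, and the median background was 2.96 at genes with and without a symbol. Width had a median of 425 bp against 420 bp. An interval wholly above the list's median was found for 24 of the 374 peaks (6.42%), where the share over all peaks was 5.46%. An interval wholly below it was found for 18 (4.81%, against 4.68%). A −log10 q of 5 or more was reached by 204 (54.5%, against 54.8%). These shares are near those of the list, so height did not set the peaks at unnamed genes apart.

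Position differed more than height. The unnamed genes were short, with a median length of 3828.5 bp against 47111 bp for the genes with a symbol, and 22.2% of the peaks were at a gene under 1000 bp against 1.60%. Peaks that spanned the gene start made up 127 of 374 (34%, 29.2 to 39.0), against 25.2% (23.3 to 27.1) at genes with a symbol. A further 10 covered the whole gene, so that 137 (36.6%, 31.7 to 41.7) lay across a start, against 25.3% (23.5 to 27.2). Peaks inside the gene numbered 126 (33.7%, 28.9 to 38.7), against 59.1% (56.9 to 61.1). Another 72 lay upstream (19.3%), 22 downstream (5.88%) and 17 across the gene end (4.55%). At genes with a symbol the downstream and gene-end classes held 0.376% and 0.141%. The smaller classes had lower leading peaks, but the highest value of a class depends on its size, so the leaders are not compared. Peaks downstream were led by ENSG00000276443 (6.35-fold), ENSG00000221972 (6.30) and ENSG00000275175 (6.01), and those covering a gene by ENSG00000229927 (6.30), ENSG00000278763 (4.93) and ENSG00000238449 (4.82). An exception at a gene end was ENSG00000280330 on chromosome 21, at 8.53-fold (5.48 to 12.7), within the pseudogene CTBP2P10. Median fold was 4.62 downstream, 4.39 where the whole gene was covered and 4.29 at gene ends. It was 4.84 for peaks spanning the start and 4.82 inside. The interval of the median at gene ends (3.46 to 4.53) lay below those spanning the start (4.61 to 5.22) and inside (4.54 to 5.04). The downstream and whole-gene intervals overlapped them. The upstream class was led by ENSG00000277700 (8.12-fold), ENSG00000222043 (7.82) and ENSG00000261889 (7.74). The length of a gene sets how much of it a peak can lie inside, and these shares were not adjusted for it. Peaks of 1 library are not replicates, so the intervals describe this list and no test was made.

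**Figure D2:**
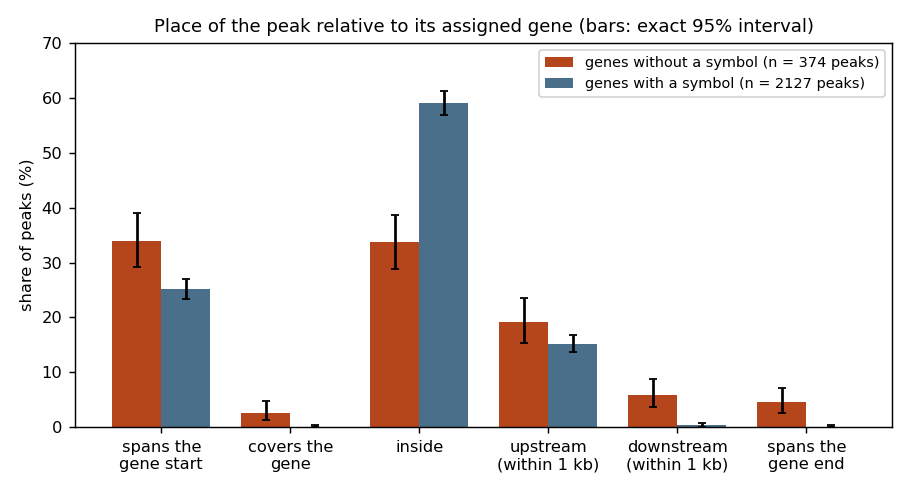
Share of peaks in each position class (vertical axis, percent, with exact 95% binomial intervals) for 374 peaks at genes without a symbol and 2127 at genes with one. Peaks across the start (34% against 25.2%) and inside the gene (33.7% against 59.1%) show the widest gaps.

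Peak centres near the start of an unnamed gene were more evenly spread over its 2 sides than at genes with a symbol. That a centre lies near the start is largely set by the rule, which takes peaks on or close to genes, many of them short. The peak centre lay within 1000 bp of the gene start in 301 of 374 (80.5%, 76.1 to 84.4), against 78.2% at genes with a symbol. Of those 301, 136 had their centre upstream of the start (45.2%, 39.5 to 51.0), whereas 491 of 1663 did at genes with a symbol (29.5%, 27.3 to 31.8). The median distance from centre to start was 348 bp, against 429.5 bp.

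**Figure D3:**
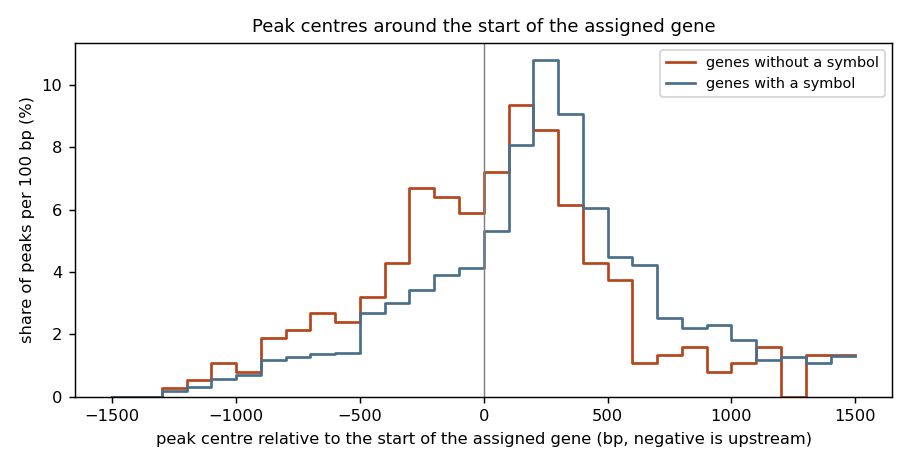
Share of peaks per 100 bp (vertical axis) by the place of the peak centre relative to the start of the assigned gene (horizontal axis, bp, negative upstream). Genes without a symbol hold 45.2% of the centres within 1000 bp on the upstream side, and genes with a symbol 29.5%.

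A protein-coding start lay near fewer of these peaks than of those at genes with a symbol. Starts were taken from the RefSeq promoter table, which was used for 354 of the 374 peaks; those on chromosome 8 were left out. Of the 354, 159 (44.9%, 39.7 to 50.3) lay within 1000 bp of a protein-coding start and 59 (16.7%, 12.9 to 21) covered one. At genes with a symbol, 1481 of 2061 lay that close (71.9%, 69.9 to 73.8) and 559 covered one (27.1%, 25.2 to 29.1). There the protein-coding gene can be the assigned gene itself. A start of another protein-coding gene lay that close in 334 of 2061 (16.2%, 14.6 to 17.9). Among peaks nearest an unnamed gene but outside it and over 1000 bp away, which the rule leaves out, 84 of 558 (15.1%) lay within 1000 bp of a protein-coding start and 36 (6.45%) covered one. A protein-coding gene that close would usually have been the assigned gene. These shares are therefore held low by the selection, and no contrast is drawn from them. Inside the set the share was 55.3% (46.4 to 64.0) for peaks across the unnamed gene's start and 38.7% (32.3 to 45.5) for the rest. Enrichment at the 159 had a median of 4.61-fold, against 4.79 at the other 195, and the intervals of these medians overlapped (4.34 to 4.83 and 4.57 to 4.92). Median width was 463 bp against 414 bp, and median background 3.07 against 2.76 fragments.

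At 119 of the 159 (74.8%, 67.4 to 81.4) the unnamed gene was on the strand opposite the protein-coding gene. In 69 the starts faced away from each other, with a median of 271 bp between them, and in 66 of these the gap was 1000 bp or less. In 50 the starts faced each other, with a median of 604 bp between them, and in 40 both genes were on the same strand. Gene ends were not used, so overlap of the genes themselves was not measured. Where a peak at a gene with a symbol also lay by the start of another protein-coding gene, the opposite strand was found in 305 of 334 (91.3%). Median enrichment was 4.72-fold in the first arrangement, 4.6 in the second and 4.4 on the same strand, with overlapping intervals.

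**Figure D4:**
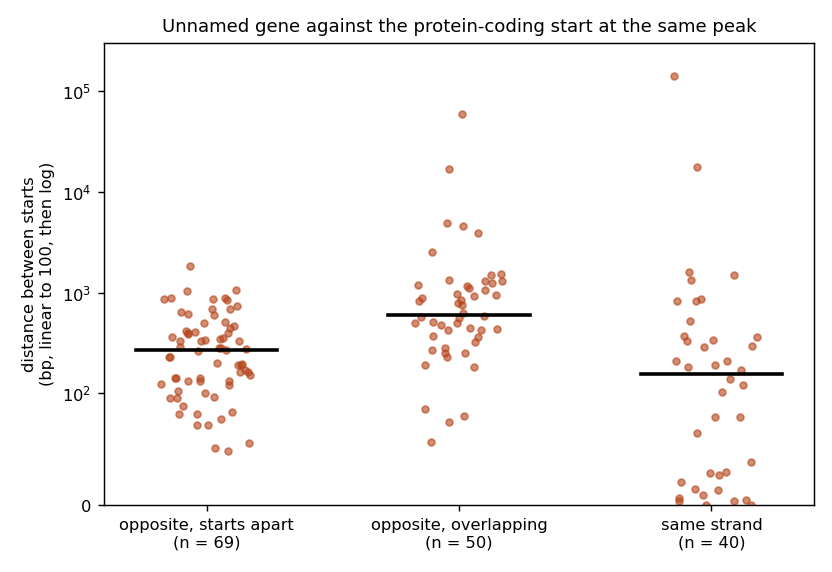
Distance between the start of the unnamed gene and the protein-coding start at the same peak (vertical axis, bp, linear to 100 and logarithmic above) by strand arrangement, 1 point for each of 159 peaks, with the median as a line. Opposite strands with starts apart have a median of 271 bp and genes on the same strand 154.5 bp. Opposite strands with starts facing each other, labelled overlapping, have 604 bp.

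Among the pairs with starts apart, the highest peak was at ENSG00000236924 and GLDC, which encodes the glycine decarboxylase of mitochondria, on chromosome 9 from 6645796 to 6646578 (9.33-fold, 6.64 to 12.8, 37 fragments). The starts were 227 bp apart. The peak at ENSG00000280331 on chromosome 11 (36509603 to 36510440) covered the start of TRAF6, a ubiquitin ligase of innate immune signalling, and an annotated RAG1 start, at 9.0-fold (5.89 to 13.2). At ENSG00000249637, whose span is that of ANKHD1-DT, enrichment was 8.56-fold (6.12 to 11.7), and the start of a read-through of ANKHD1 and EIF4EBP3 lay 707 bp away. ENSG00000243187, or CCDC39-AS1 by span, had 8.16-fold (5.19 to 12.3) beside CCDC39, a gene needed for motile cilia. A peak of 7.82-fold (4.98 to 11.8), credited to ENSG00000222043, lay 258 bp from the start of NFE2L2, the regulator of the oxidative stress response. ZDHHC23, a palmitoyltransferase gene, shared a peak of 7.62-fold (4.95 to 11.3) with ENSG00000273394. The amyloid precursor gene APP shared one of 7.27-fold (4.72 to 10.8) with ENSG00000273492, and NEK2, a kinase of the centrosome, one of 7.0-fold (4.35 to 10.7) with ENSG00000231057. Lower in this group, DKK1, a secreted Wnt antagonist, and ENSG00000236671 shared a peak of 5.49-fold (3.59 to 8.06) on chromosome 10.

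The highest pair with starts facing each other was ENSG00000269792 with EID2B, on chromosome 19 from 39532016 to 39532802 (9.27-fold, 6.07 to 13.6). SNX29 and SNX27, both sorting nexin genes, followed at 6.96-fold (4.48 to 10.4) and 6.88-fold (4.38 to 10.4). KDM2B, a histone demethylase gene, shared a peak of 5.80-fold (3.73 to 8.65) with ENSG00000256742. On the same strand, SBNO1 and ENSG00000277700 led with 8.12-fold (5.75 to 11.2, 36 fragments), followed by AJUBA, a LIM-domain scaffold gene, with ENSG00000259132 at 7.41-fold (4.86 to 10.9). The intervals of these named pairs overlapped, so their heights are not ranked.

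A peak credited to ENSG00000244300 lay on the start of GATA2, which encodes a GATA factor needed in early blood cells. It ran on chromosome 3 from 128488065 to 128488660 and was listed as upstream of the unnamed gene, whose span is that of GATA2-AS1. At 18 fragments over 3.69 of background it reached 4.06-fold (2.49 to 6.29). The GATA2 start at 128488530 fell within it, and the starts of the 2 genes were 682 bp apart on opposite strands. The peak that the list assigns to GATA2 itself lies 7343 bp away and had 6.4-fold (4.29 to 9.20); the intervals overlap. The promoter window printed above for this start held none of the marked letters.

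Few of the regulators considered lay beside the other members, which is largely set by the rule. The listed genes have symbols, and a peak credited to such a gene is not a member. The counts below therefore do not describe how many peaks of the whole list lie at these genes. Of 12 gene lists, 6 had a gene within 1000 bp of a member peak, with 7 genes in all. Of 36 ERK feedback and immediate early genes only DUSP6, a phosphatase of ERK, did (5.09-fold, 2.88 to 8.45). Of 39 HOX genes only HOXA2 did, 944 bp from a peak within the lncRNA gene HOTAIRM1 (5.84-fold, 3.68 to 8.87). Of 41 corepressor and chromatin genes EP300, an acetyltransferase gene, held a low peak on its start (2.64-fold, 1.7 to 3.94). Of 37 splicing genes SRSF11 (4.34-fold, on its start) and SRSF1 were found, the latter 20 bp from a peak that covers the start of VEZF1 (3.63-fold), and of 40 translation genes EIF4E (4.82-fold), which encodes the cap-binding protein. GATA2 was the single hit among 35 haematopoietic transcription factors. No member lay at a PRDM, TGF-beta and BMP, cell cycle, kidney, mast cell or histone gene of these lists.

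Of the 353 genes, 106 shared the span of a RefSeq gene, with a reciprocal overlap of at least 80%. They were 60 lncRNA genes, 14 pseudogenes and 14 transcribed pseudogenes, 8 small nuclear RNA (snRNA) genes, 5 microRNA genes, 4 protein-coding genes and 1 transfer RNA gene. Of the 60 lncRNA genes, 15 have a RefSeq name ending in -DT, for divergent transcript, 21 carry -AS, for antisense, and 18 a LOC or LINC name. Median enrichment was 4.91-fold at lncRNA spans (65 peaks), 4.81 at pseudogenes (14) and 4.85 at transcribed pseudogenes (15), close to 4.75 where no span matched (261). Counted by overlap of the peak itself, 134 of 374 (35.8%) touched a RefSeq lncRNA gene and 35 (9.36%) a pseudogene. The shares were 15.7% and 1.69% at genes with a symbol, and 17.8% and 2.43% over 3419 peaks of the list. More of the 374, 206 (55.1%), touched a protein-coding gene, against 83.5% at genes with a symbol and 68.8% over the 3419. No RefSeq gene was touched by 68 (18.2%), against 9.31% and 19.6%. A peak can touch genes of several types. The rule takes genes without a symbol, among which lncRNAs and pseudogenes are common. Only 106 of the 353 genes had a type by span, and how far the rule sets the lncRNA and pseudogene shares was not tested. Among pseudogenes matched by span, MEMO1P4 on the X chromosome had the highest peak (8.53-fold, 5.48 to 12.7), equal to that of the peak within CTBP2P10 given above, then CNTNAP3P2 on chromosome 9 (7.24-fold, 5.02 to 10.1) and IPO5P1 (6.95-fold). UBE2Q2P11 and KRT8P45 followed among those RefSeq types plainly as pseudogenes, at 5.79 and 5.76-fold. Reads of a pseudogene and its parent gene can be hard to tell apart, and the handling of repeats in mapping was not stated in the sources used here. The transfer RNA gene TRI-TAT2-2 lay 27 bp from a peak of 6.56-fold (4.33 to 9.56).

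The snRNA genes stood apart in fragments and background. All 8 lie on chromosome 17 within 43241180 to 43296615, are 191 to 192 bp long and carried 9 peaks, the whole of the list in that stretch. RefSeq types them as snRNA, and the region is known for the tandem repeat of genes for U2, an RNA of the spliceosome. Enrichment there was 2.04 to 4.26-fold with a median of 3.72, the lowest of any type with several members. Fragments ran from 20 to 114 with a median of 39, and background from 3.99 to 50.4 with a median of 10.1, against medians of 18 and 2.96 over the set. The peak at ENSG00000278048 had 114 fragments over 29.1 (3.83-fold, 3.16 to 4.59), the most fragments of the set. That at ENSG00000274432 had 104 over 50.4 (2.04-fold, 1.67 to 2.47). Copies of such a repeat are near-identical, so which copy a read came from is uncertain. The part of background in these low folds was not tested. No other peak of the list overlapped an snRNA gene of RefSeq beyond the 6 in this array that did.

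**Figure D5:**
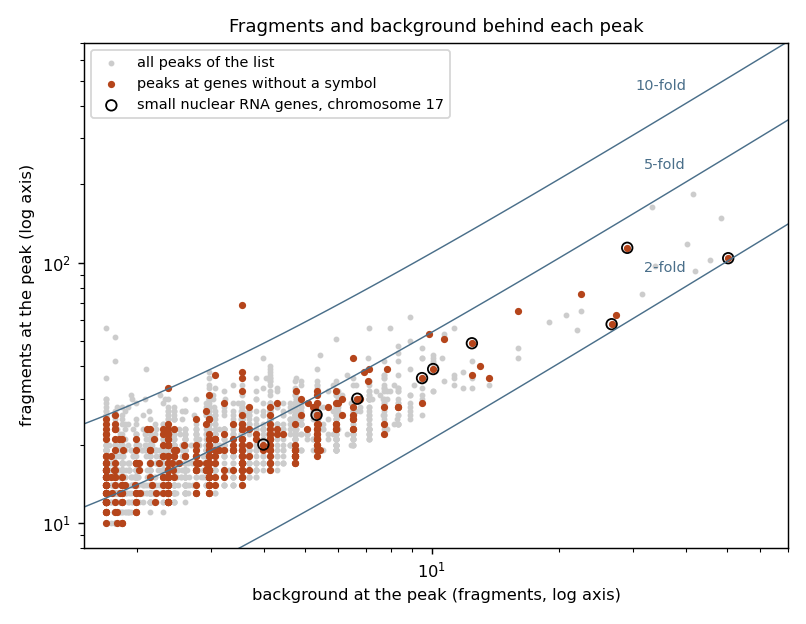
Fragments at each peak (vertical, log axis) against background (horizontal, log axis) for all peaks (grey), peaks at genes without a symbol (red) and the 9 peaks at the snRNA genes of chromosome 17 (circled), with lines of equal fold. The circled points run from 20 to 114 fragments along the lower edge, and 11 peaks of the list lie outside the plotted range.

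ENSG00000259660 on chromosome 15 (101751032 to 101794302) was the only gene with more than 2 member peaks. Its 4 peaks lay inside it at 3.88-fold (3.01 to 4.93), 3.27 (2.59 to 4.09), 2.83 (2.01 to 3.87) and 2.26 (1.75 to 2.89). They held 37 to 76 fragments over backgrounds of 12.5 to 27.3. Together with those of the snRNA array, 3 of them made up 7 of the 10 members with most fragments. Another 18 genes had 2 peaks each. In ENSG00000274422, within the immunoglobulin lambda locus of chromosome 22, these reached 8.64-fold (5.61 to 12.8) and 6.48-fold (3.92 to 10.2). In ENSG00000206120, which has the span of the pseudogene EGFEM1P, they reached 6.91-fold (4.56 to 10.1) and 4.33-fold (2.95 to 6.16). Peaks of 1 gene share their surroundings and are not independent, and 39 of the 374 had another peak of the list within 1000 bp.

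At the microRNA genes the peaks lay beside the hairpin more often than on it, with 2 of 5 overlapping. The mature forms at the highest and the lowest of these peaks were as follows, from RefSeq on GRCh38.p14, with the seed (bases 2 to 8) in capitals.
hsa-miR-8072: gGCGGCGGggagguaggcag
hsa-miR-1281: uCGCCUCCuccucuccc
The gene of the first lies 599 bp from the SBNO1 peak of 8.12-fold described above. The second lies within the EP300 peak of 2.64-fold (22 fragments over 7.71), which covers part of its gene. The other 3, MIR6791, MIR4785 and MIR7706, had 5.25-fold (3.18 to 8.24), 4.04-fold (2.37 to 6.49) and 3.88-fold (2.42 to 5.96).

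The widest member, 1972 bp on chromosome 17 from 57084613 to 57086584, covered the start of AKAP1, a gene for a mitochondrial anchoring protein, and of ENSG00000263004, which has the span of AKAP1-DT. Its enrichment was 4.46-fold (3.15 to 6.16), so width and height did not go together there. Next came 1500 bp at SPECC1 (5.55-fold) 1491 bp at DST-AS1 (6.82-fold) and 1386 bp in ENSG00000259660 (2.26-fold).

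Promoter windows under member peaks were searched for 13 short motifs on both strands. There were 99 windows under 69 peaks, beside 680 windows under 538 peaks at genes with a symbol and 35116 windows in the whole table. GGGCGG was in 78 of 99 windows (78.8%, 69.4 to 86.4), against 73.2% under peaks of genes with a symbol and 45.0% of all windows. TTCCGG was in 34 (34.3%, 25.1 to 44.6), against 27.4% and 17.2%, and ACTTCCG, which shares most of its letters, in 10.1%, against 11.6% and 6.83%. AGATAA was in 8 windows at 6 peaks (8.08%, 3.55 to 15.3), against 3.24% and 10.3%, and in 1.79% of 56 windows at peaks with a −log10 q of 5 or more. GAAGATGAG, letters reported for the second zinc finger domain of MECOM, was in 0 of 99, which allows a share of up to 3.66% by the exact interval, against 0.147% and 0.347%. GACAAGATA was in none, and in 0.0968% of all windows. A doubled GATA motif of the first zinc finger domain and a YY1 motif were also in none, and in 0.0399% and 1.2% of all windows. The NRF1 motif was in 5 windows at only 3 peaks (5.05%, 1.66 to 11.4), against 1.47% and 1.24%, and in 0 of the 56 windows at peaks with that −log10 q. CCAAT was in 27.3%, against 23.8% and 34.6%, and TATAAA in 7.07%, against 2.50% and 11.5%. The AP-1 letters TGACTCA were in 1 window (1.01%), and the CRE letters TGACGTCA in 2 windows at 1 peak (2.02%). Under peaks of genes with a symbol each was in 3.38%. Windows at 1 peak can overlap, and windows under peaks differ from the table at large in base composition, so these shares are descriptions.

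The set was spread over 23 chromosomes, with most members on chromosomes 1 (44), 17 (31) and 12 (30). Its share of a chromosome's peaks ran from 5.26% on chromosome 20 to 18.3% on chromosome 8. At the limit of the rule, the members with the longest distances from their gene lay 961, 934 and 920 bp away, with folds of 4.57, 4.95 and 3.72. The peaks just beyond it lay at 1034, 1042 and 1050 bp, with 4.34, 2.85 and 5.19-fold.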

How the data were processed

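ChIP-seq against the AM tag was carried out in HEK293T cells, with chromatin cut by micrococcal nuclease and sonication and paired-end sequencing, per the labels' protocols. The submitters' processing notes name HOMER 4.10, ChIPseeker 1.18.0, MACS2 2.1.1.20160309.6 and the aligner Bowtie2 2.4.2, then deepTools (3.5.1.0.0, 3.3.2.0.0) and the build hg38, with no settings. The deposited list has no header. Its fold enrichment is a ratio to local background, its −log10 values are of p and q (lowest −log10 q 2.00), and the deposited score is the whole part of 10 times −log10 q in all 3465 lines. No gene was given for 43 peaks. Positions, gene starts and classes are the authors' own.

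Fragments and background were worked out as the whole number for which (fragments + 1)/(background + 1) is the fold and the Poisson tail is the p-value, within 0.001 or a share of 1e-05. This held for all 3462 peaks and was tested on 500 simulated peaks (100% recovered). Those were made with the same formula, at lower backgrounds than some peaks of the list, so that test covers the arithmetic only. Total read numbers were not stated in the sources used here. No Ensembl ID matched the RefSeq table (GRCh38.p14), since its Ensembl column holds none of the 353, so genes were matched by span (same strand where known). The planned setting without genes named by ID was therefore not run. Names by rule were the 15 highest peaks, the 3 highest of each class and RefSeq type, genes with 3 or more peaks, the 4 widest peaks, up to 4 per gene list and the peaks nearest the distance limit. RefSeq types came from spans, since none matched by ID as the rule asked. Other named genes (ZDHHC23, NEK2, DKK1, SNX29, SNX27, KDM2B and AJUBA) were chosen after their values were seen. The set, lists and motifs were chosen with earlier results of these data known. Python 3.11.15, pandas 2.3.3, numpy 2.4.6, scipy 1.17.1 and matplotlib 3.10.9 were used.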

Additional observations from a re-analysis of the deposited data

How the results depend on the processing

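Settings without the small nuclear RNA genes, without genes of a RefSeq span or without peaks with a second line were chosen after the data were seen. Of 162 alternative values, 146 stayed within the interval of the main value (or within 1.5 times a count). Part of this count was fixed in advance. Motifs absent from the main windows could only stay absent in a subset of them, and some settings kept all of the windows. The count is therefore no measure of stability. With −log10 q of 5 or more there were 204 members, a median fold of 5.55 (5.56 at genes with a symbol), 81.5% on the opposite strand, 9 genes with several peaks, AGATAA in 1.79% of 56 windows, and the AP-1 letters and the NRF1 motif in 0% each. With overlap only, members were 8.09% of peaks, 48.9% of them lay across a start (29.9% at genes with a symbol) and 10 genes had several peaks. Merging neighbours left 6 such genes, of 19. Without genes of a RefSeq span, members were 7.54% of peaks, 12 genes had several peaks and TGACGTCA was in 0% of 69 windows. By fragments over background with no pseudocount the median was 6.07 (6.09 at genes with a symbol), and by −log10 q 5.28 (5.33). These settings keep fewer peaks or change the unit. The share at a protein-coding start was 42.4 to 47.1% in every setting run. No paired analysis was possible because a single library per group leaves no replicate numbers to match. A median of 18 fragments limits the ranking of peaks.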
